A study of Arabidopsis thaliana with 4 samples.

Results

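WRI1 and 9 genes for the plastid enzymes that turn phosphoenolpyruvate into fatty acids were examined for binding by the seed regulator LEAFY COTYLEDON1 (LEC1). These 10 genes, among 27444 protein-coding genes of Arabidopsis thaliana chromosomes 1 to 5, were named by locus, and every peak in a gene or within 1 kb of either of its ends was assigned to it. The 10 genes held 8 of the 6356 peaks of the series. The chromatin came from bent cotyledon-stage seeds of plants homozygous for the lec1-1 mutation and for the LEC1:LEC1-GFP:LEC1 transgene, which supplies LEC1 joined to green fluorescent protein. An anti-GFP antibody gave the ChIP samples (2 biological replicates), which were set against input, the unprecipitated chromatin of the same material (2 biological replicates). Both groups had the same genotype, whole seeds were used, and none of the samples lacked the transgene. The data are 1 list of peaks for the series, with a position and a score for each peak, so no value below carries a replicate error, no test between the ChIP and input samples was possible, and the read depth is unknown.

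In the plastids of a developing seed, pyruvate kinase makes pyruvate, pyruvate dehydrogenase makes acetyl-CoA from it, and the multi-subunit acetyl-CoA carboxylase makes malonyl-CoA, the carbon donor of fatty acid synthesis. Condensing enzymes such as beta-ketoacyl-ACP synthase I (KASI) then lengthen the acyl chain on an acyl carrier protein. WRI1 (WRINKLED1) is an AP2-domain transcription factor that activates many of these enzyme genes during seed filling and is known to act downstream of the LEC regulators. LEC1 itself belongs to the NF-YB family, whose proteins act within the CCAAT-binding complex NF-Y.

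LEC1-GFP peaks lay at WRI1, at the E1 beta gene of pyruvate dehydrogenase, at 3 of the 4 carboxylase genes and at KASI. That made 6 of the 10 genes. Over all protein-coding genes the same rule found a peak at 24.6%. Neither pyruvate kinase gene had a peak, nor did PDH-E1 ALPHA or the biotin carboxylase gene CAC2. The 10 genes were 2071 to 4393 bp long, against a median of 2078 bp over all genes, and 9 of them were longer than that median. Among the 11361 genes within that range of lengths 29.2% had a peak. Since the genes are few and were named one by one, these shares describe them and were not tested.

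**Figure D1:**
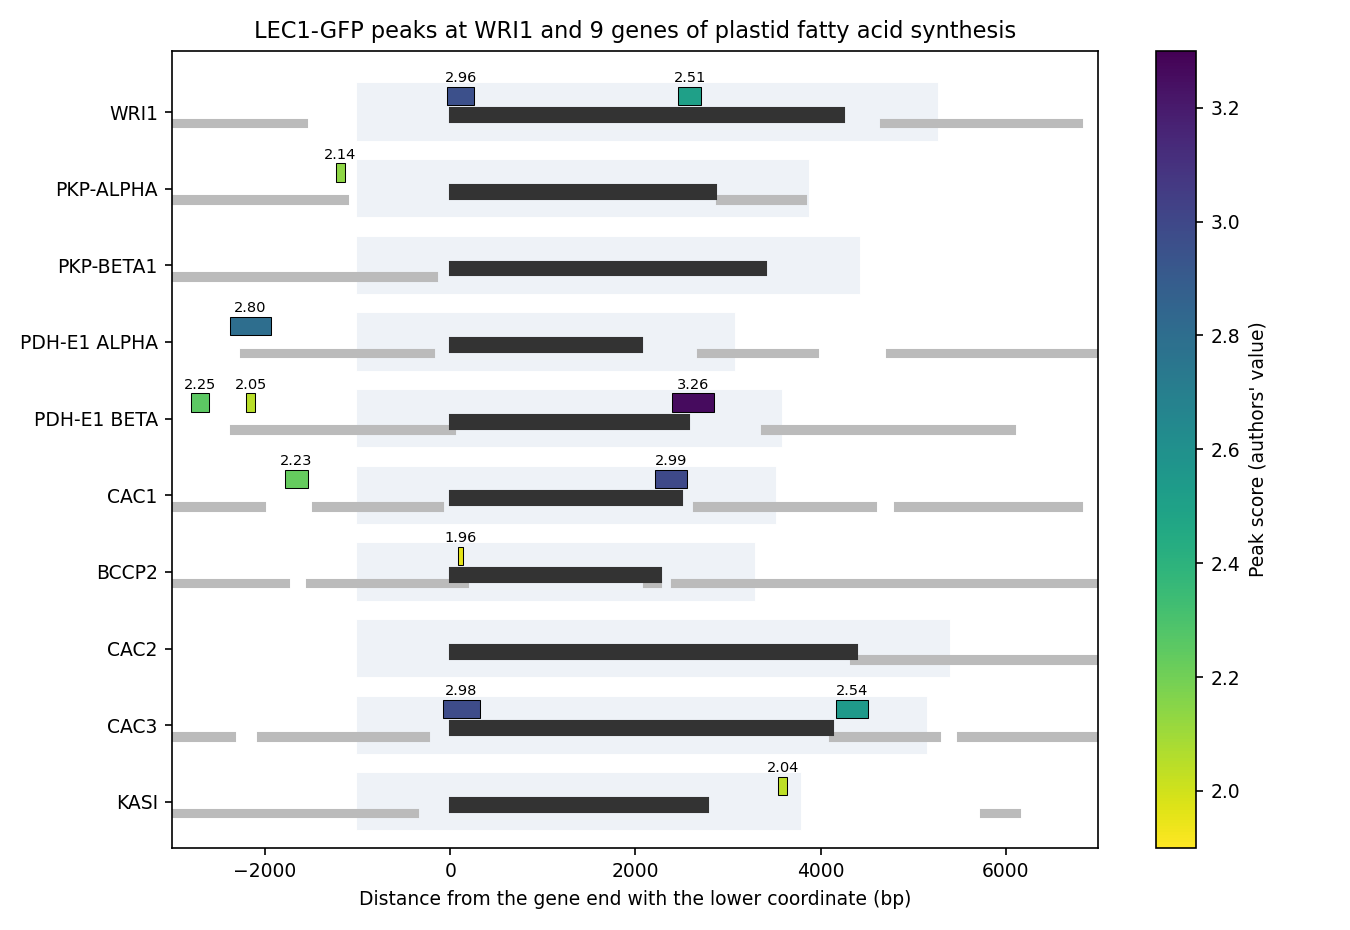
Each row shows 1 of the 10 genes as a dark bar, drawn from the end with the lower coordinate (0 on the horizontal axis, in bp), with neighbouring protein-coding genes in grey, the gene and 1 kb to either side shaded, and LEC1-GFP peaks as boxes coloured and labelled by the authors' score. Peaks lie over or close to a gene end at PDH-E1 BETA, CAC1, CAC3, BCCP2 and WRI1, whereas PKP-BETA1 and CAC2 have no peak in view; the transcribed strand is not shown.

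WRI1 (AT3G54320) carried 2 peaks, both in the gene. The stronger lay at chromosome 3, 20114451 to 20114749 (TAIR10), with a score of 2.96, higher than 81.8% of all peaks. It straddled the gene end with the lower coordinate, with 262 of its 299 bp inside the gene. The weaker lay at 20116951 to 20117199 with a score of 2.51, above 54.6% of all peaks, and its midpoint was 1670 bp inside the nearer gene end. No other protein-coding gene was within 1 kb of either peak, so their assignment does not depend on a neighbour. Among all genes with a peak, 16.5% had 2 or more. The gene table used gives no strand, so whether the end of WRI1 under the stronger peak is its start or its 3′ end cannot be read from these data.

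The scores are values the authors gave each peak, and the sources used here do not say what they measure. They ran from 1.92 to 4.51 with a median of 2.45 over the list.

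Of the pyruvate dehydrogenase subunits, PDH-E1 BETA (AT1G30120) had a peak and PDH-E1 ALPHA (AT1G01090) had none. The PDH-E1 BETA peak had the highest score of the 8, 3.26, and ranked 543 of 6356. It spanned chromosome 1, 10586501 to 10586949, with its midpoint 45 bp outside the gene end and 180 of 449 bp inside the gene. The next gene, AT1G30130, began 522 bp from the peak. For PDH-E1 ALPHA the closest peak was 1935 bp away (chromosome 1, 44851 to 45299), had a score of 2.80 and lay nearest to the neighbouring gene AT1G01080. Both subunits belong to the same E1 enzyme, which catalyses the decarboxylation of pyruvate. Besides its own peak, PDH-E1 BETA had 2 weaker peaks beyond the 1 kb limit, 2106 and 2606 bp from the gene with scores of 2.05 and 2.25, nearest to NUDX25.

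Acetyl-CoA carboxylase is built from a biotin carboxyl carrier protein, a biotin carboxylase and a carboxyltransferase. Peaks lay at genes for some of these parts and not others. The 4 member genes are nuclear, and CAC1 and BCCP2 both encode the carrier protein. Of the carboxyltransferase only the alpha subunit was among the members. CAC1 (AT5G16390), which encodes the first carrier protein, had a peak with a score of 2.99 at chromosome 5, 5363001 to 5363349. It overlapped the gene by 297 of 349 bp, and its midpoint lay 122 bp inside the gene end. TRXF2, a thioredoxin gene, lay 71 bp beyond this peak. CAC1 and TRXF2 therefore share it under the 1 kb rule, although its midpoint was nearest to CAC1. A further peak 1540 bp from CAC1, with a score of 2.23, was nearest to AT5G16380.

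BCCP2 (AT5G15530), the second carrier protein gene, had a peak of another kind. It was 49 bp wide, the narrowest width in the list and shared with 472 peaks in all, and its score of 1.96 ranked 6241 of 6356. It lay at chromosome 5, 5038651 to 5038699, inside BCCP2 and at the same time inside AT5G15520, which overlaps BCCP2 at that end. The carrier protein genes CAC1 and BCCP2 thus stood at opposite parts of the list, with 83.0% of all peaks below the CAC1 peak and 1.81% below the BCCP2 peak.

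CAC3 (AT2G38040), for the alpha subunit of the carboxyltransferase, had 2 peaks, at either end of the gene. The stronger (chromosome 2, 15916951 to 15917349) had a score of 2.98 and overlapped the gene by 318 of 399 bp, with its midpoint 118 bp inside. AT2G38025 lay 144 bp from it. The weaker (15921201 to 15921549, score 2.54) lay 31 bp outside CAC3 and inside DET2, a steroid reductase gene of brassinosteroid synthesis, and PHT4;2, a phosphate transporter gene, was 969 bp away. Its midpoint was nearest to DET2, so with each peak given only to its nearest gene CAC3 kept the stronger peak alone. CAC2 (AT5G35360), for the biotin carboxylase, had no peak, and the closest was 4355 bp away with a score of 2.67 (chromosome 5, 13592851 to 13593149).

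KASI (AT5G46290), the condensing enzyme of most elongation rounds, had 1 weak peak. It was 99 bp wide, lay at chromosome 5, 18777601 to 18777699, 762 bp outside the gene, and had a score of 2.04, above 9.02% of all peaks. No other gene was within 1 kb of it. With a window of 500 bp in place of 1 kb KASI had no peak.

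The pyruvate kinase genes among the members, PKP-ALPHA and PKP-BETA1, had no peak. For PKP-ALPHA (AT3G22960) the closest was 1136 bp away, just beyond the limit, with a score of 2.14 and a width of 99 bp (chromosome 3, 8137951 to 8138049), and lay nearest to ARFC1. For PKP-BETA1 (AT5G52920) it was 16771 bp away, and 82.2% of all protein-coding genes had a peak as close or closer. KASI at 762 bp and PKP-ALPHA at 1136 bp were thus the members just inside and just outside the limit, with scores of 2.04 and 2.14.

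The surroundings of the genes without a peak differed. Within 50 kb of PKP-ALPHA there were 11 peaks and 22 protein-coding genes, and within 50 kb of PDH-E1 ALPHA there were 9 peaks and 24 genes. PKP-BETA1 had 3 peaks among 27 genes within the same distance, and CAC2 had 1 peak among 9 genes. The median over all genes was 6 peaks. CAC2 thus lay in the stretch with the fewest genes and the fewest peaks of the 10 members. Around the 6 members with a peak there were 6 to 9 peaks within 50 kb. These counts include each member's own 1 or 2 peaks, so they are not comparable with those of the members without a peak.

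**Figure D2:**
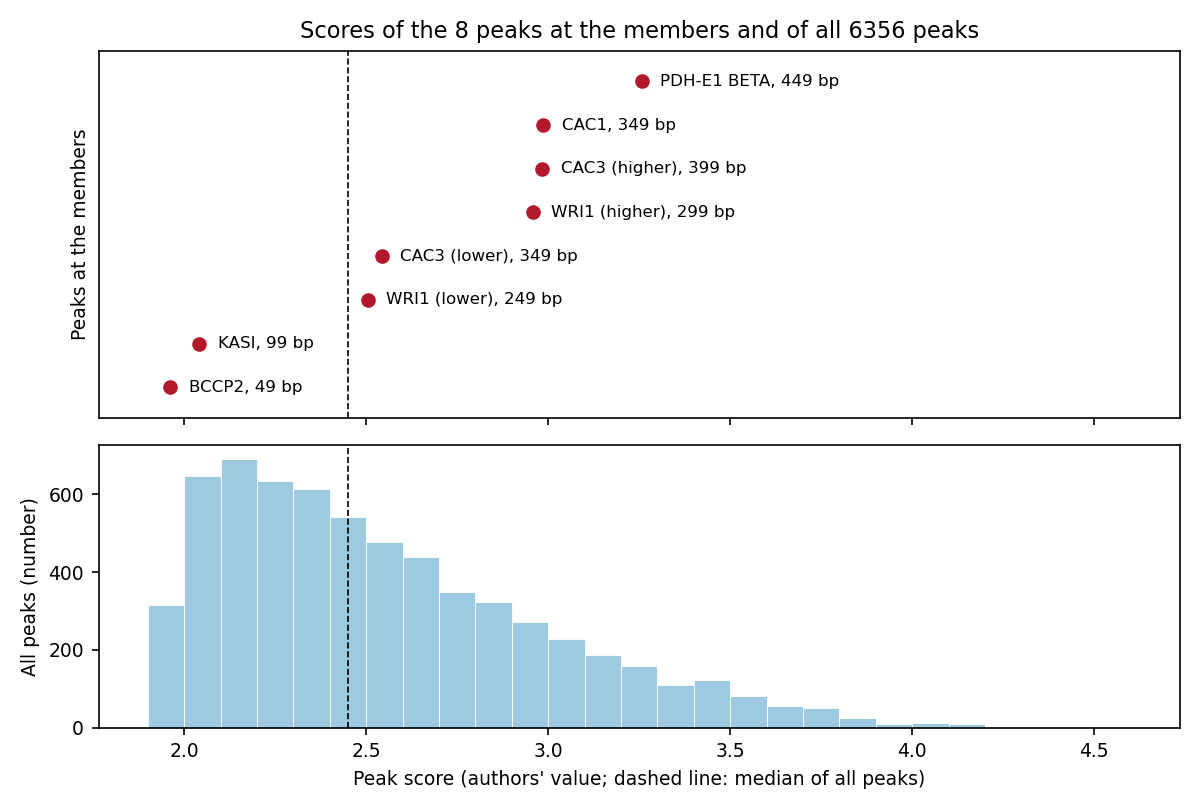
Upper panel, the score of each of the 8 peaks at the members on the horizontal axis, labelled with the gene and the peak width; for WRI1 and CAC3 the higher and the lower of their 2 peaks are marked. Lower panel, the number of peaks in each score interval over all 6356 peaks. The dashed line is the median of the whole list, 2.45, and 6 of the 8 peaks lie above it.

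The 6 members with a peak differed in its strength. PDH-E1 BETA, CAC1, CAC3 and WRI1 had highest scores from 2.96 to 3.26, and KASI and BCCP2 had 2.04 and 1.96. The median of the 6 members' highest scores was 2.97, against 2.51 over all genes with a peak. A highest score is taken over all peaks of a gene, and the groups were not matched for number of peaks or gene length. Of the 6 members 2 had 2 peaks, while 16.5% of all genes with a peak had 2 or more. Wider peaks scored higher throughout the list (Spearman's rho 0.86 across peaks, which share libraries and are not independent), and the weak peaks of KASI and BCCP2 were also the narrowest of the 8. The highest score among the 8 peaks, 3.26, was above 91.5% of all peaks, and the highest score of the list was 4.51.

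Most of these peaks sat at a gene end. The midpoints of 6 of the 8 lay within 300 bp of an end of the member, inside or outside, and of the 5414 peaks in or within 1 kb of some protein-coding gene 64.3% had a midpoint that close to a gene end. The exceptions were the second WRI1 peak, deep in the gene, and the KASI peak. A second gene was within 1 kb of 5 of the 8 peaks, against 44.6% of the 5414 peaks that reach at least 1 gene, with CAC3, CAC1, PDH-E1 BETA and BCCP2 as the members concerned.

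The count of members with a peak was followed as the window and the list of peaks were changed. The shares of all genes set beside these counts were not matched for gene length, although 9 of the 10 members were longer than the median gene. With the gene alone 5 of the 10 members had a peak, against 12.5% of all genes. With flanks of 500 bp there were 5, against 20.4%, and with flanks of 2000 bp there were 8, against 31.5%, with PKP-ALPHA and PDH-E1 ALPHA added. The flanks without the gene gave 5, against 21.4%, since the BCCP2 peak lies in the gene only. When the midpoint of the peak, or at least 50% of its length, had to lie in the window the count was 6, against 23.6% under either rule. With each peak given to its nearest gene it was 6, against 17.4%. Genes equally near shared a peak under this last rule, and BCCP2 was counted through such a tie with AT5G15520.

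With the 3178 peaks of highest score WRI1, PDH-E1 BETA, CAC1 and CAC3 had a peak, 4 of 10 against 13.5% of all genes. The next 2 cut-offs were chosen after seeing the data. These 4 genes still had a peak among the 1589 highest-scoring peaks, against 7.03% of all genes. Among the 635 highest-scoring peaks PDH-E1 BETA was the only member, against 2.84% of all genes.

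**Figure D3:**
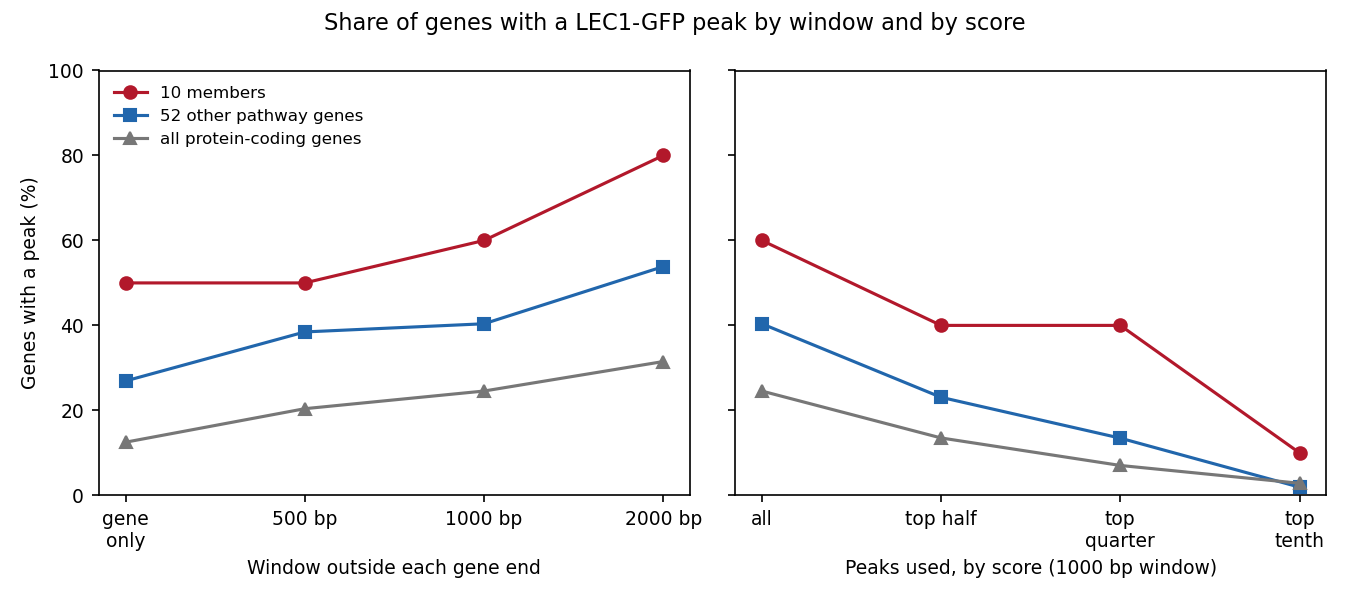
Percentage of genes with a LEC1-GFP peak among the 10 members (circles), 52 other genes of the pathway (squares) and all 27444 protein-coding genes (triangles). Left, by the window outside each gene end; right, by the share of highest-scoring peaks used, with the 1000 bp window. The members lie above all genes at each setting drawn, from 8 of 10 with 2000 bp to 1 of 10 with the 635 highest-scoring peaks. Gene lengths were not matched, and the cut-offs at the 1589 and 635 highest-scoring peaks were chosen after seeing the data.

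The rest of the route from sucrose to free fatty acids was examined with 52 further genes in 6 lists, of which 21 had a peak, beside the 24.6% of all genes. Their highest scores had a median of 2.52, against 2.51 over all genes with a peak. The gene table gives 17 of the 52 by locus alone, and these are named by locus. Their place in a list came from general knowledge of the pathway. The shares of all genes set beside the lists were not matched for gene length. The genes for carbon supply were 2332 to 5030 bp long and the acyl carrier protein genes 1029 to 1810 bp. The median over all genes was 2078 bp.

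Genes that bring carbon to the plastid and through glycolysis had a peak at 8 of 15, beside 24.6% of all genes. There were 5 with the gene alone, with each peak given to its nearest gene, or with the 3178 highest-scoring peaks. The shares of all genes under these settings were, in that order, 12.5%, 17.4% and 13.5%. Both plastid glyceraldehyde-3-phosphate dehydrogenase genes were among the 8. GAPCP-1 had 2 peaks and a highest score of 2.99, GAPCP-2 had 2.87, and PGM, for phosphoglucomutase, had 2.86. The GAPCP-2 peak overlapped this gene by 43 bp and also overlapped AT1G16290, the gene nearest to its midpoint. Both sucrose synthase genes in the list, SUS2 and SUS3, also had a peak, with highest scores of 2.52 and 2.67. The glucose-6-phosphate translocator gene GPT1 and the phosphoenolpyruvate translocator gene CUE1 had none, while their relatives GPT2 and PPT2 had weak peaks with scores of 2.21 and 1.95.

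Of the other pyruvate kinase and pyruvate dehydrogenase genes 4 of 6 had a peak, beside 24.6% of all genes. With each peak given to its nearest gene there were 3, beside 17.4%. The flanks without the gene gave 2, beside 21.4%, and the 3178 highest-scoring peaks gave 1, beside 13.5%. AT4G16155, a plastid lipoamide dehydrogenase (E3) gene, had the highest score, 3.13. Its peak overlapped the gene by 33 of 499 bp, and ATOEP16-2, which shares it, was nearest to the midpoint. The other plastid lipoamide dehydrogenase gene, LPD1, had 2.19. EMB3003, for an E2 (dihydrolipoamide acetyltransferase) subunit, had 2.15. PKp3, the third plastid pyruvate kinase gene, had a weak peak inside the gene with a score of 2.11, so 1 of the 3 kinase genes had a peak. AT2G34590, a further E1 beta gene, and LTA2, the other E2 gene in the list, had none.

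None of the 4 genes listed as accessories of the carboxylase had a peak, AT3G56130, AT1G52670, AT3G15690 and HCS1, the gene for the enzyme that attaches biotin. The closest peaks were 1740 to 10277 bp away, so 1 of the 4 had a peak with flanks of 2000 bp. Over all genes 24.6% had a peak with flanks of 1000 bp and 31.5% with 2000 bp.

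The elongation cycle had a peak at 2 of 12 genes or 16.7%, beside 24.6% of all genes. There were 4 with flanks of 2000 bp, beside 31.5%, and 1 with the gene alone, beside 12.5%. EMB3147 had a score of 2.64. FAB1, for beta-ketoacyl-ACP synthase II, had 2 peaks outside the gene with scores of 2.60 and 2.06, and neighbours shared both of them. KAS III and AT1G24360 had no peak. None of the 5 acyl carrier protein genes ACP1 to ACP5 had one either. KASI and FAB1 were thus the condensing enzyme genes with a peak, and in both the peaks lay outside the gene.

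Desaturation and release of the finished chain had a peak at 6 of 12 genes, beside 24.6% of all genes. There were 3 with the 3178 highest-scoring peaks, beside 13.5%, and 4 with each peak given to its nearest gene, beside 17.4%. The peak of LACS9, a long-chain acyl-CoA synthetase gene, lay 911 bp outside it and nearest to AT1G77580. That of AT3G02610 lay 477 bp outside the gene and nearest to LPP3. AT4G13050, listed as an acyl-ACP thioesterase gene, had the highest score of all 62 genes examined, 3.82. Its peak lay at chromosome 4, 7617351 to 7617699, with the midpoint 97 bp inside the gene end, and ranked 55 of 6356. FaTA, another gene for an acyl-ACP thioesterase, an enzyme that ends chain growth, had 2.98, close to WRI1, CAC1 and CAC3. FATB, the remaining thioesterase gene of the list, had no peak. SSI2, the stearoyl-ACP desaturase gene, had 2 peaks with scores of 2.85 and 2.64. The weaker lay in the gene, whereas the stronger lay 474 bp outside it and nearest to AT2G43700. AT5G16240 and AT3G02620 had no peak. AT3G02610, with a score of 2.23, lies near AT3G02620 and AT3G02630, and AT5G16230, with 2.10, lies beside AT5G16240. If these neighbours are similar copies, their peaks are uncertain, because the sources used here do not state how reads with several matches were handled.

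Of the 3 relatives of WRI1, AT2G41710 alone had a peak, beside 24.6% of all genes. It had a score of 2.48 and was shared with EMB2654. ADAP, also called WRI3, had its closest peak 1262 bp away, and for WRI4 it was 5687 bp away. Flanks of 2000 bp gave 2 of the 3 a peak, beside 31.5% of all genes, and the gene alone gave 0, beside 12.5%. WRI1 was thus the gene of this family with the highest score and the only one of the 4 with 2 peaks.

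**Figure D4:**
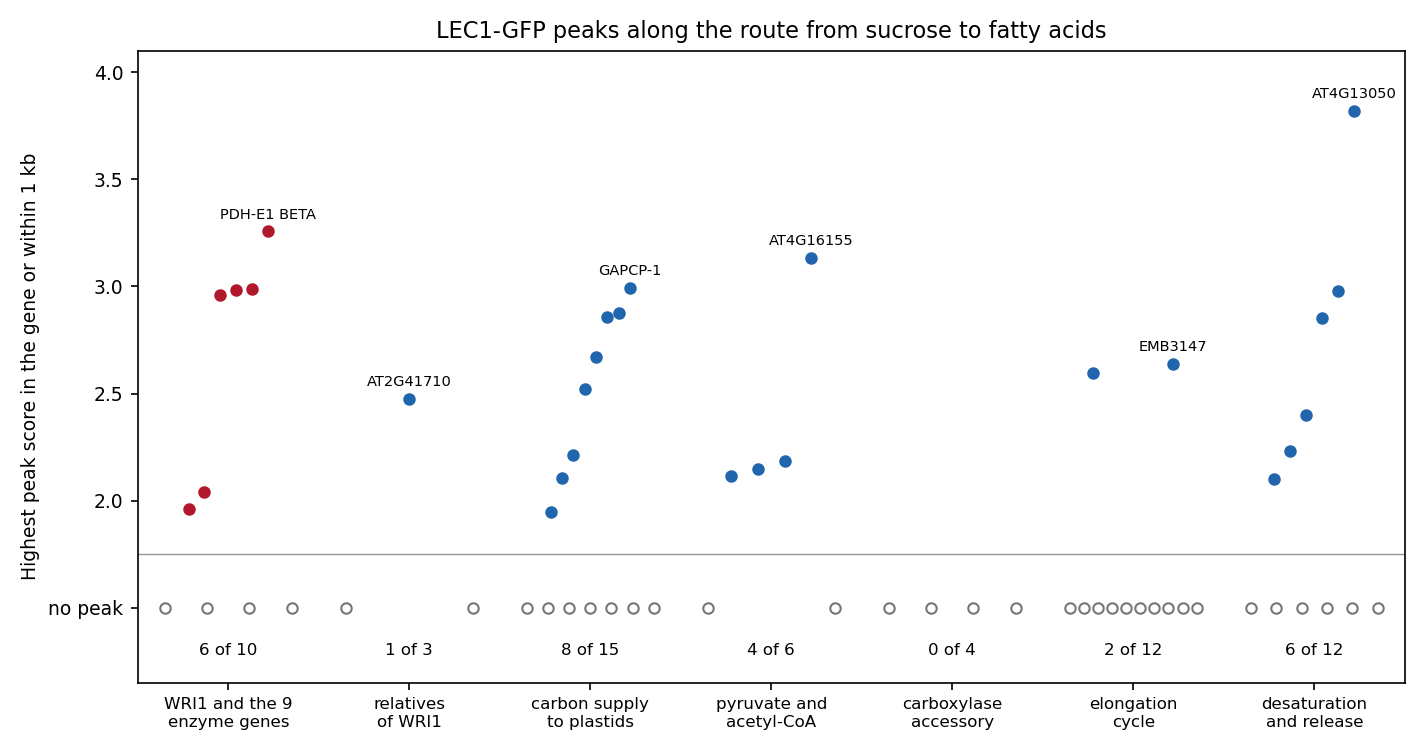
Highest LEC1-GFP peak score in each gene or within 1 kb of it (vertical axis, the authors' value), for WRI1 and the 9 enzyme genes (red) and for 52 further genes in 6 lists (blue). Open circles are genes with no peak, the numbers below give the genes with a peak of those in each list, and the gene with the highest score is named; AT4G13050 stands highest at 3.82 and the carboxylase accessory list has no peak.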

How the data were processed

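LEC1-GFP ChIP and input samples, 2 each, are described by 1 deposited peak list. The submitters' processing notes name Bowtie 0.12.7, SAMtools 0.1.19 and the TAIR10 build. The peak caller, its threshold and any pooling of replicates were not given in the sources used here. Each deposited score is a value of the authors on an unstated scale and served only to describe and rank peaks. Peak edges follow a 50 bp grid, and starts were raised by 1 to count from 1.

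Genes were placed and named with a RefSeq table of assembly TAIR10.1, all 62 genes were found by locus, and gene positions are not printed. Moving the peaks checked the match: 34.0% of midpoints lay inside genes with no offset and 57.7% and 56.9% at 1000 bp to either side. Around 9 of the 10 members the best offset was 0, and around CAC2 it was -100 bp. Strand and exons are not in the table and no sequence was used here, so the planned motif search and distances to transcription starts were not made.

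A gene had a peak when at least 1 bp of one lay in the gene or within 1000 bp of it, and 1 peak could count for several genes. Assignment used Python 3.11.15 with pandas 2.3.3 and was tested on simulated data. The members and lists were chosen with earlier results of these data known. All 10 members, every gene sharing a peak with a member, and of each list up to 3 genes with the highest scores and the first 2 without a peak were named by rule. SUS2, SUS3, GPT2, PPT2, PKp3, AT3G15690, HCS1, LACS9, FATB, the acyl carrier proteins and the neighbours of other peaks were added after their values were seen.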

Additional observations from a re-analysis of the deposited data

How the results depend on the processing

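The members with a peak numbered 4 to 8 under the 8 other settings of window, overlap, score or assignment listed at the outset, with 6 as reported. There were 4 with the 1589 and 1 with the 635 highest-scoring peaks, both alternatives chosen after seeing the data. With the 3178 highest-scoring peaks 12 of the 52 other pathway genes and 3707 of all protein-coding genes had a peak, against 21 and 6738 as reported. With the gene alone 3432 of all genes had one. Each of these settings uses fewer peaks or a smaller window by construction. WRI1, PDH-E1 BETA, CAC1 and CAC3 had a peak under each of those 8 settings, whereas KASI and BCCP2 did not. No paired analysis was possible because the list holds no values per sample, and for the same reason leaving out a replicate could not be run. The depth behind a peak is unknown, so a gene without a peak is not shown to be free of LEC1-GFP.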

Other observations

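Mitochondrial counterparts of the plastid enzymes, together with the homomeric acetyl-CoA carboxylases, a list drawn up after the peak list had been opened and before these genes were looked up, had a peak at 2 of 11 genes (18.2%), beside 24.6% of all protein-coding genes. Of 6 mitochondrial pyruvate dehydrogenase genes, E1 ALPHA had a peak with a score of 2.89 and IAR4, MAB1, LTA3, mtLPD1 and mtLPD2 had none. The homomeric acetyl-CoA carboxylase genes ACC1 and ACC2, adjacent copies, had no peak, and the closest was 75819 bp from ACC1 and 88616 bp from ACC2. Within 50 kb there were 0 peaks, with 6 protein-coding genes for ACC1 and 3 for ACC2, themselves included. If these copies are similar in sequence, the lack of a peak is uncertain, because the handling of reads with several matches is not stated. Of 3 mitochondrial acyl carrier protein genes MTACP-1 had a peak with a score of 3.61, within 1 kb of RAB6A as well, and mtACP2 and mtACP3 had none.

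Genes for the cofactors of these enzymes, listed at the same point, had a peak at 3 of 6, beside the same 24.6%. BIO1, a biotin synthesis gene, had a score of 3.50 from a peak 831 bp outside the gene that AT5G57610 shares, and BIO2, for biotin synthase, and BIOF had none. AT4G31050, given as an octanoyl transferase for lipoate attachment, had 2.61 and the lipoyl synthase gene AT5G08415 had 2.00, while the lipoic acid synthase gene LIP1 (AT2G20860) had none.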
